A study of Homo sapiens with 18 samples.

Results

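Messenger RNA of the cytosolic ribosomal proteins was measured in human embryonic stem cells with and without the zinc finger transcription factor ZNF263. The genes were chosen by symbol alone, as those named RPL or RPS with a number, together with RPSA, RPLP0, RPLP1 and RPLP2, and S6 kinase genes, pseudogenes and 2 Y-linked genes were left out. The rule gave 84 of the 27130 gene symbols in the count tables, of which 31 encode small-subunit proteins, 46 encode large-subunit proteins and 7 encode paralogs (RPL22L1, RPL26L1, RPL39L, RPS27L, RPL3L, RPL10L and RPL7L1). Polyadenylated RNA was sequenced in 18 libraries of H1 (WA01) and H9 (WA09), both established cell lines. The replicated groups, of 3 libraries each, were the homozygous ZNF263 knockout clone 1-10 of H1, H1 wild type, the homozygous knockout clones 9-1 and 9-D of H9, and H9 wild type. Clone 1-10, the heterozygous knockout clone 1-5 and H1 wild type also had 1 unreplicated library each. Each knockout group is 1 clone made with Cas9, so the effect of the knockout and that of the clone cannot be told apart within it. The labels do not say whether the libraries of a group came from separate cultures, and p-values may then measure technical spread only.

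Ribosomes are built from ribosomal RNA and from the proteins described here, which assemble into a small subunit that reads the messenger RNA and a large subunit that joins amino acids. Most of these messenger RNAs begin with a terminal oligopyrimidine (TOP) tract, a C followed by a run of C and T at the very start of the transcript, through which LARP1 and the kinase complex mTORC1 control their translation. Transcription of ribosomal protein genes and of ribosome assembly factors is promoted by MYC, and pluripotent stem cells make ribosomal components at a high rate.

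The start of the transcript is shown for members whose values are described below and for 2 other genes, RPL36AL and BTF3, because the TOP tract is what most of these genes share in sequence beyond their names. Sequences are from RefSeq on GRCh38.p14, 15 bases before and 15 bases from the annotated start, and capitals mark the annotated first base and any unbroken run of C and T that begins with it.
RPS13 (chr11:17077653-17077682, minus strand): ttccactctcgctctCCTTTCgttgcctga
RPS23 (chr5:82278340-82278369, minus strand): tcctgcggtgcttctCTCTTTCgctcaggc
RPL14 (chr3:40457324-40457353, plus strand): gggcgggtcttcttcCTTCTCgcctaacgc
RPL10 (chrX:154398362-154398391, plus strand): caggcggaggagcgcCTCTTTCCCTTCggt
RPL36A (chrX:101390996-101391025, plus strand): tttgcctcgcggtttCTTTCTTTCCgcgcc
RPL36AL (chr14:49620612-49620641, minus strand): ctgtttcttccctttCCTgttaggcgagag
RPL22L1 (chr3:170870181-170870210, minus strand): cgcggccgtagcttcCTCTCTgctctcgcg
RPL27 (chr17:42998404-42998433, plus strand): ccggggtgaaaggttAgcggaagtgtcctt
RPL26L1 (chr5:172958714-172958743, plus strand): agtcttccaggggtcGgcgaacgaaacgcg
RPS27L (chr15:63157463-63157492, minus strand): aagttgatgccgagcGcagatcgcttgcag
BTF3 (chr5:73498427-73498456, plus strand): tgtcacttccggcctCCCTTTagctgccat
A start with C and at least 4 further C or T stood at an annotated start of 47 of the 67 members found in the RefSeq table (70.1%), against 5.14% of 27305 genes. RPL27 and the paralogs RPL26L1 and RPS27L had no such run at the annotated base, whereas RPL22L1 had one. The letters CCGGAAG, the core recognised by ETS factors, were sought on either strand of the 250 bases before the start. They stood there in 34.3% of members, against 10.2% of genes. GGAGGAG, which occurs in published motifs of ZNF263, stood on either strand of that window in 20.9% of members, against 21.0% of genes, and sites of these motifs can share at most 2 bases.

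Library totals ranged from 9.66 to 21 M counts, and 81 of the 84 genes passed the filter on low counts in every comparison. RPL3L, RPL10L and RPL21 did not pass. RPL21 had at most 3 counts in any library, RPL10L had 1 count in a single library, and RPL3L had at most 11. RPS10, RPL17 and RPL36A had 61 to 432 counts a library, and since each has pseudogenes, a duplicate or a read-through neighbour with which reads can be shared, their values are uncertain. RPL21 also has pseudogenes, so its low counts do not show that it was not expressed. ZNF263, the targeted gene, had 32.3, 33.3 and 36.1 CPM in clone 1-10, against 40.5, 42 and 39.6 CPM in H1 wild type. In H9 it had 37.4, 36.2 and 34.4 CPM in 9-1 and 35.3, 35.3 and 37.8 CPM in 9-D, against 39.9, 44.4 and 42.7 CPM in wild type. Every knockout library lay below the wild type of its line. The log2 fold change was -0.27 in clone 1-10 and -0.23 in each of 9-1 and 9-D (edgeR adjusted p = 0.0156, 0.0157 and 0.0204), so the labels were matched by direction, but the edited part of the gene is not given and most of the transcript remained. Levels are given as TMM-scaled CPM, the count over the library total after TMM scaling, which corrects for composition, and were scaled within each deposited table. Levels are therefore not compared between H1, H9 and the single libraries. POU5F1, NANOG, SOX2, LIN28A and DNMT3B, the defining genes of pluripotent cells, were well above the counting limit in every library.

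The part of the messenger RNA held by ribosomal protein genes overlapped between clone and wild type in 1-10 and 9-1, and clone 9-D of H9 was the only replicated knockout group that lay entirely above its wild type. They held 5.58%, 5.95% and 5.77% of all counts in clone 1-10, against 5.47%, 5.74% and 5.51% in H1 wild type. The clone's 2 highest libraries exceeded every wild-type library, but its lowest lay within their range. In H9 they held 5.05%, 4.60% and 4.90% in clone 9-1, and 4.90%, 5.18% and 5.37% in clone 9-D, against 4.73%, 4.81% and 4.69% in wild type. The 9-D libraries did not overlap with wild type, whereas the 9-1 library numbered 2, the deepest of all at 21 M counts, lay below every wild-type library.

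The mean share was 5.77 ± 0.186% in clone 1-10 and 5.57 ± 0.148% in H1 wild type (SD, n = 3 each), and a 2-sided exact permutation test of the 0.192 percentage points between them gave p = 0.2. Clone 9-1 averaged 4.85 ± 0.23% and H9 wild type 4.74 ± 0.0603% (SD, n = 3 each), with an exact permutation p = 0.6. Clone 9-D averaged 5.15 ± 0.235%, which was 0.404 percentage points above the same wild type, with an exact permutation p = 0.1. With 3 libraries a group, 0.1 is the smallest p this test can give. Both H9 clones together averaged 5.0 ± 0.264% (n = 6), 0.255 points above wild type, with an exact permutation p = 0.19, and these 6 libraries come from only 2 clones. Leaving out each library in turn gave 0.182 to 0.335 points, and the highest of these, with an exact permutation p = 0.0357, was reached without the 9-1 library numbered 2, the one with the lowest share. In bulk RNA, a change in the number of cells of a type cannot be told apart from a change in the RNA of each cell.

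**Figure D1:**
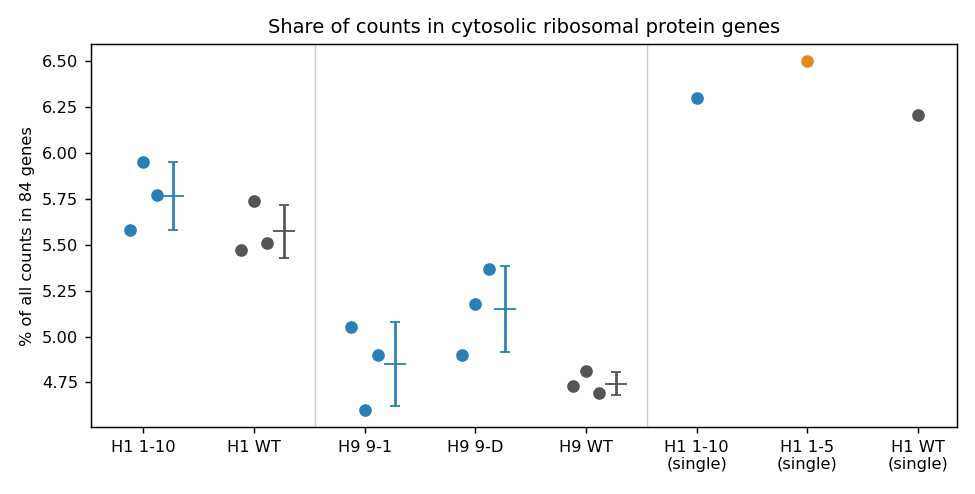
Percent of all counts in the 84 ribosomal protein genes, 1 point per library, with the mean and SD of each replicated group as bars; the vertical axis does not start at 0. Clone 9-D sits between 4.90% and 5.37%, above H9 wild type at 4.69% to 4.81%, while 1-10 and 9-1 overlap their wild types.

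The share was spread over many genes of both subunits. RPS2 held the most, at 0.224 ± 0.0146% of all counts (SD, n = 15 libraries), followed by RPL3 at 0.211%, RPLP0 at 0.202%, RPL8 at 0.182% and RPL4 at 0.160%. Together these 5 made up 18.8% of the counts of all members, where long transcripts weigh more than short ones. None of the 5 passed the test in all 3 clones. RPS2, RPL8 and RPLP0 rose in 9-D, by 0.15, 0.26 and 0.20 on the log2 scale, whereas RPL3 (0.13, SE 0.0521) and RPL4 (0.12, SE 0.0513) did not pass there.

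Single genes were tested with edgeR's quasi-likelihood test, and a gene is called higher or lower where its p-value, adjusted by Benjamini-Hochberg over all tested genes, was below 0.05. In clone 1-10 of H1, small changes upward outnumbered those downward: 18 of the 81 tested members were higher and 3 lower than in H1 wild type. Over all 14897 tested genes 5.01% were called higher and 7.25% lower. The members' median log2 fold change was 0.10, against 0 for all tested genes, and 73 of 81 were above 0. The median log2 level of the members itself varied between replicates with an SD of 0.0554, pooled over 5 groups, and H1 wild-type library 2 alone had 69 of 81 members above the wild-type mean. Small-subunit genes were called more often, with 10 of 31 higher and none lower, than large-subunit genes, with 7 of 45 higher and 2 lower, although the difference between the subunits was not tested. The paralogs gave 1 higher and 1 lower of 5. The count of 18 fell to 6 without wild-type library 1, to 4 without wild-type library 3 and to 6 without clone library 3, and was 29 without wild-type library 2. It was 8 when counts were scaled by library totals only and 29 without the filter on low counts. The count of 3 lower genes was 0 without wild-type library 3 and 1 without wild-type library 2 or any clone library. DESeq2 as run here called no member lower, whereas the authors' deposited DESeq2 results called RPL13A and RPL36A lower (DESeq2 adjusted p = 0.0424 and 0.0431).

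The small-subunit genes that rose in clone 1-10 included RPS13 and RPS23. RPS13 had 434, 440 and 485 CPM in clone 1-10, against 390, 387 and 402 CPM in H1 wild type. All clone libraries lay above all wild-type libraries, and the log2 fold change was 0.20 (SE 0.0486, edgeR adjusted p = 0.00462). RPS23, which lies at the decoding centre, had 859, 906 and 927 CPM, against 751, 857 and 736 CPM in wild type, with a log2 fold change of 0.20 (SE 0.0493, edgeR adjusted p = 0.00672). Here too the groups did not overlap, though wild-type library 2 came within 2 CPM of the lowest clone library. Without wild-type library 3 the RPS23 call was lost (edgeR adjusted p = 0.089), and without clone library 3 that of RPS13 (edgeR adjusted p = 0.0585).

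RPSA, also known as the laminin receptor precursor, had 1590, 1760 and 1710 CPM in clone 1-10, against 1500, 1560 and 1570 CPM in H1 wild type. The clone libraries were all higher, by 0.12 on the log2 scale (SE 0.0421, edgeR adjusted p = 0.0474). RPS6, the substrate of the S6 kinases downstream of mTORC1, had 1240, 1310 and 1330 CPM, against 1150, 1230 and 1180 CPM in wild type, and also rose by 0.12 (SE 0.0419, edgeR adjusted p = 0.0498). Both calls stand just inside the threshold and were lost without wild-type library 1 (edgeR adjusted p = 0.171 for RPSA and 0.189 for RPS6). Of the 6 fits without 1 library, 1 kept the RPSA call and 3 the RPS6 call.

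On the large subunit, RPL41, the smallest ribosomal protein, had 467, 491 and 473 CPM in clone 1-10, against 377, 452 and 410 CPM in H1 wild type. The groups did not overlap and the log2 fold change was 0.21 (SE 0.0525, edgeR adjusted p = 0.00791). RPL22, an RNA-binding protein outside the core of the subunit, had 425, 430 and 454 CPM, against 373, 403 and 362 CPM in wild type (log2 fold change 0.20, SE 0.049, edgeR adjusted p = 0.00553). Its clone libraries all exceeded the wild-type libraries. The RPL41 call was lost without wild-type library 1 (edgeR adjusted p = 0.0923) and the RPL22 call without wild-type library 3 (edgeR adjusted p = 0.0739).

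RPL36A and RPL13A were the large-subunit genes that fell in clone 1-10. RPL36A had 5.97, 5.03 and 6.4 CPM in clone 1-10, against 7.43, 8.27 and 9.51 CPM in H1 wild type, which is 61 to 94 counts a library in the clone and 93 to 132 in wild type. All clone libraries were below wild type, with a log2 fold change of -0.56 (SE 0.151, edgeR adjusted p = 0.0132). RPL36AL, an intronless copy on chromosome 14 whose product is nearly identical and which the symbol rule leaves out, had 143, 155 and 157 CPM, against 112, 126 and 105 CPM in wild type. It rose by 0.41 (SE 0.0624, edgeR adjusted p = 2.1e-05), and reads that fit both copies could be split between them in a way the files do not show. RPL13A, known for its part in interferon-dependent silencing of translation, had 158, 179 and 162 CPM, against 176, 198 and 192 CPM in wild type. It fell by 0.18 on the log2 scale (SE 0.0576, edgeR adjusted p = 0.034) although the highest clone library overlapped with the lowest of wild type. The RPL36A call was lost without wild-type library 3 (edgeR adjusted p = 0.102) and without clone library 2 (edgeR adjusted p = 0.0622).

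**Figure D2:**
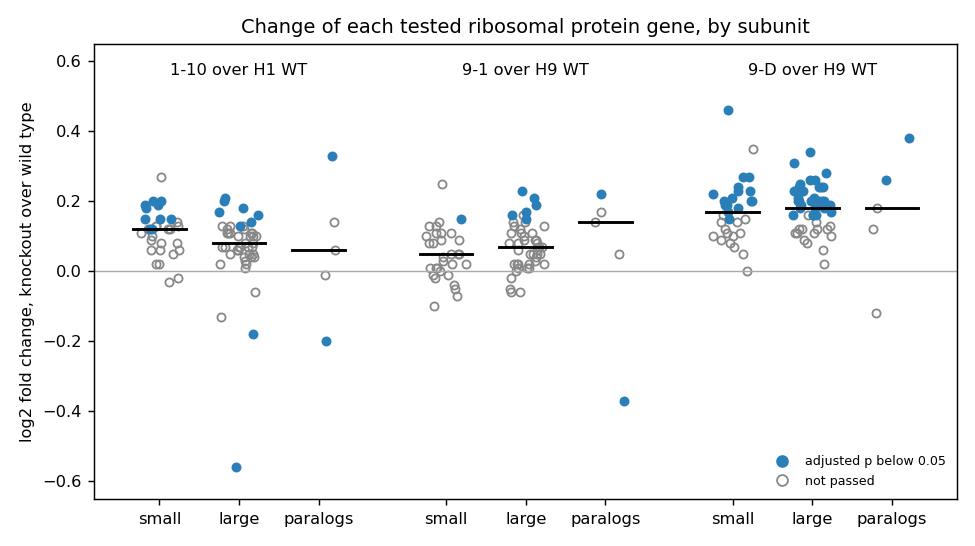
Log2 fold change, knockout over its wild type, for each of the 81 tested genes, split by subunit and clone; filled points passed the edgeR test at an adjusted p below 0.05, open points did not, and black lines are medians. Small and large subunits lie mostly above 0 in each clone, with 48 filled points in 9-D, 21 in 1-10 and 9 in 9-1.

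In clone 9-1 of H9, few ribosomal protein genes changed: 8 of 81 were called higher and 1 lower than in H9 wild type. Over all 15411 tested genes 12.8% were called higher and 13.5% lower, 26.3% in either direction, so the members' share of higher calls, 9.88%, was below that of all genes. The median log2 fold change of the members was 0.06, against 0 for all tested genes, with 68 of 81 above 0. All 3 clone libraries lay above all wild-type libraries in 18 of 81 members and below them in 1 of 81. Of all tested genes, 20% lay above and 20% below. The members' upward count was near that share and the downward count far below it. The higher genes were 6 of 45 large-subunit genes, among them RPL8, RPL9, RPL14, RPL23 and RPL27, 1 of 31 small-subunit genes, and the paralog RPL22L1. The count of 8 became 13, and the median 0.12, without the clone library numbered 2; the count became 1 without clone library 1 or without clone library 3. It became 4 without wild-type library 1 and 5 without wild-type library 3, and was 13 by DESeq2 and 3 when scaled by library totals only.

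In clone 9-D of H9, most ribosomal protein genes rose by a small amount. Of 81, 48 were called higher than in H9 wild type and none lower. Over all tested genes 11.5% were called higher and 12% lower in this clone. At an unadjusted edgeR p under 0.05, 62 members were higher and 0 lower. By that measure 2588 of all 15411 tested genes were higher and 2693 lower. The members' median log2 fold change was 0.18, against -0.01 for all tested genes, and 79 of 81 were above 0. Large-subunit genes gave 30 of 45 higher, small-subunit genes 16 of 31 and paralogs 2 of 5. In 54 of the 81 genes all 3 clone libraries lay above all 3 wild-type libraries, which was the case for 17.4% of all tested genes. Leaving out each library in turn gave between 34 and 56 genes called higher, and scaling by library totals only gave 27. The comparisons of 9-1 and 9-D share the wild-type libraries, so their values are set side by side.

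RPL8, which lies at the peptidyl transferase centre, had 1870, 1650 and 1830 CPM in clone 9-1 and 1740, 1850 and 1860 CPM in 9-D, against 1530, 1490 and 1520 CPM in H9 wild type. Every knockout library was above every wild-type library. The log2 fold change was 0.23 in 9-1 (SE 0.0541, edgeR adjusted p = 0.00115) and 0.26 in 9-D (SE 0.0541, edgeR adjusted p = 0.000323). The 9-1 call held with each library left out. RPL14 had 708, 648 and 670 CPM in 9-1 and 694, 717 and 750 CPM in 9-D, against 608, 587 and 618 CPM in wild type, again with no overlap. It rose by 0.16 in 9-1 (SE 0.054, edgeR adjusted p = 0.0248) and by 0.25 in 9-D (SE 0.054, edgeR adjusted p = 0.000508).

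RPL27 had 482, 409 and 484 CPM in 9-1 and 483, 512 and 509 CPM in 9-D, against 409, 366 and 415 CPM in H9 wild type. Clone 9-D lay above wild type and clone 9-1 overlapped with it through its library 2. The log2 fold change was 0.21 in 9-1 (SE 0.0618, edgeR adjusted p = 0.0108) and 0.34 in 9-D (SE 0.0617, edgeR adjusted p = 6.74e-05). RPL23, a known binder of the p53 regulator MDM2, had 601, 515 and 563 CPM in 9-1 and 583, 614 and 616 CPM in 9-D, against 514, 424 and 529 CPM in wild type. Wild-type library 2 was the lowest for both genes, and without it RPL27 and RPL23 no longer passed in 9-1 (edgeR adjusted p = 0.0894 and 0.271). Both also failed to pass in 9-1 without clone library 1 (edgeR adjusted p = 0.0656 for RPL27 and 0.151 for RPL23) or clone library 3 (0.0865 for RPL27 and 0.0657 for RPL23).

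RPL10, which is added late in assembly of the large subunit, had 959, 953 and 1060 CPM in 9-D, against 817, 766 and 860 CPM in H9 wild type. The groups did not overlap, and the gene rose by 0.28 (SE 0.0566, edgeR adjusted p = 0.000254). RPS15A had 442, 471 and 491 CPM in 9-D, against 384, 382 and 400 CPM in wild type, a rise of 0.27 (SE 0.0565, edgeR adjusted p = 0.000466). RPS10 had the largest log2 fold change among members called in 9-D, 0.46 (SE 0.123, edgeR adjusted p = 0.005), from a low level of 11.2, 10.1 and 12.5 CPM, against 8.11, 7.96 and 8.4 CPM in wild type. All 3 genes kept their calls in 9-D with each library left out.

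RPL5 and RPL11, which together with a ribosomal RNA bind MDM2 when assembly is disturbed, both rose in 9-D. RPL5 had 976, 1010 and 991 CPM in 9-D, against 856, 872 and 892 CPM in H9 wild type (log2 fold change 0.19, SE 0.0512, edgeR adjusted p = 0.00657). RPL11 had 630, 634 and 659 CPM, against 549, 546 and 574 CPM in wild type (log2 fold change 0.20, SE 0.0566, edgeR adjusted p = 0.00683). For both genes the 9-D libraries all lay above wild type. In 9-1 their log2 fold changes were 0.11 and 0.10, and in 1-10 they were 0.07 and 0.13, none of which passed.

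The stalk proteins recruit translation factors to the large subunit. RPLP0, the base of the stalk, had 2170, 2400 and 2240 CPM in clone 1-10, against 1990, 2080 and 2130 CPM in H1 wild type. In H9 it had 2000, 1870 and 1970 CPM in 9-1 and 1950, 2020 and 2160 CPM in 9-D, against 1800, 1730 and 1820 CPM in wild type. No knockout library overlapped with its wild type, and RPLP0 was called in 1-10 (log2 fold change 0.13, SE 0.0416, edgeR adjusted p = 0.0328) and in 9-D (0.20, SE 0.0531, edgeR adjusted p = 0.0051) but not in 9-1 (0.13, SE 0.0531, edgeR adjusted p = 0.0677). Of the 6 fits without 1 library, the call held in 2 in 1-10 (edgeR adjusted p up to 0.146) and in 6 in 9-D. RPLP1 and RPLP2, which form the dimers of the stalk, passed in no clone, with log2 fold changes of 0.07 and 0.13 in 1-10, -0.05 and -0.06 in 9-1, and 0.09 and 0.12 in 9-D.

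**Figure D3:**
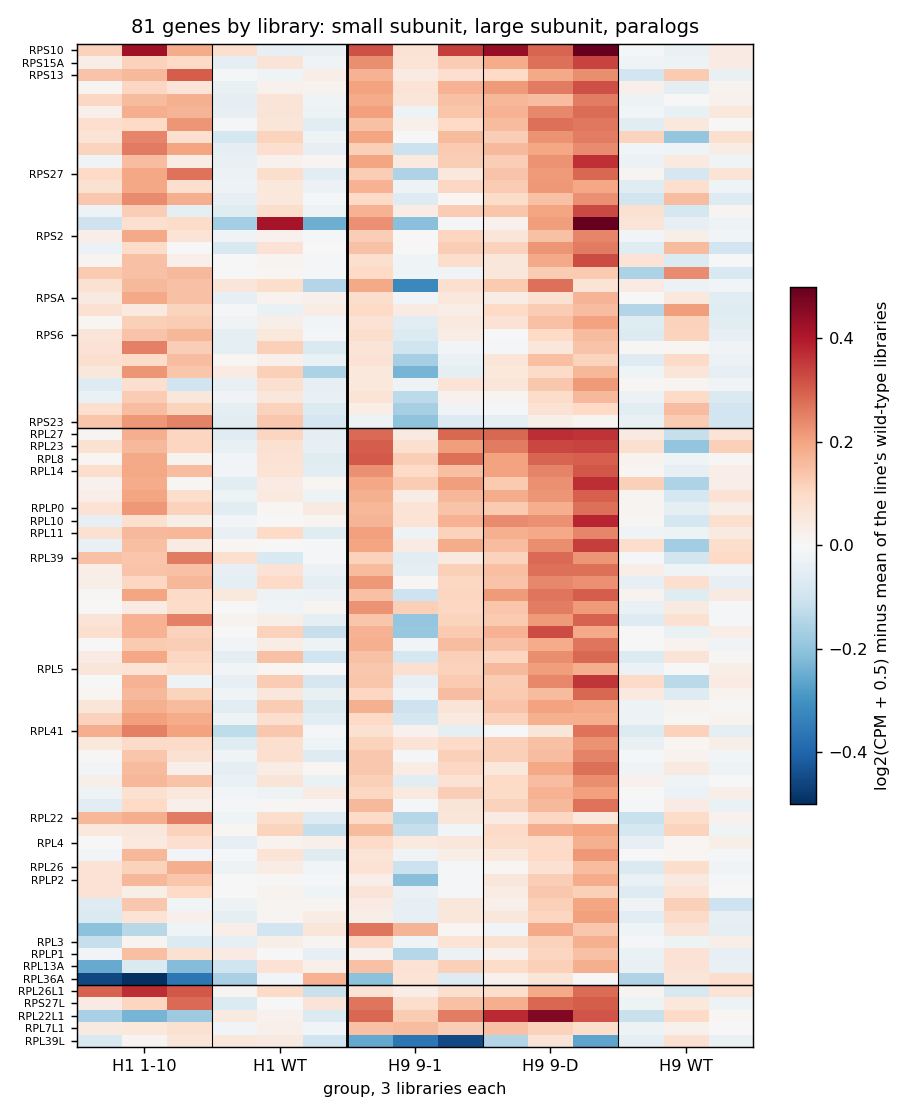
Log2 of CPM plus 0.5 in each of the 15 replicated libraries for the 81 tested genes, minus the mean of the line's wild-type libraries; the colour scale ends at 0.5 in either direction, and genes are grouped into small subunit, large subunit and paralogs, with names given for those described in the text. Clone 9-D is red in nearly every row, clone 9-1 library 2 is paler or blue in many rows, and RPL36A, RPL22L1 and RPL39L stand out from their neighbours.

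The clones of H9 were also set against each other. No member passed the test of 9-D against 9-1, and DESeq2 also called none. At an unadjusted edgeR p under 0.05, 30 of 81 members were higher and none lower. By that measure 602 of all 15411 tested genes were higher and 417 lower. Only 0.305% of all tested genes were called in that comparison. The log2 difference was above 0 in 79 of 81 members and had a median of 0.11, where all tested genes had a median of 0. Replicates of 9-1 themselves differed, with 78, 35 and 66 of 81 members above the H9 wild-type mean, and the SD of the members' median between replicates was 0.0554. Without 1 library at a time this median ranged from 0.07 to 0.15. In 18 of 81 members all 9-D libraries were above all 9-1 libraries, as they were in 5.99% of all tested genes. The difference in the number of calls between the clones, 48 and 8, therefore does not show that a given gene responded differently.

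Across lines, 9 genes were called higher in both 1-10 and 9-D, comparisons that share no library: RPL14, RPL30, RPL37, RPL39, RPLP0, RPS13, RPS26, RPS27 and RPS4X. They make up 50% of the 18 genes called higher in 1-10 and 18.8% of the 48 called higher in 9-D. Both shares lie below those of all tested members, of which 59.3% were called higher in 9-D and 22.2% in 1-10. RPL14, which was also called higher in 9-1, had in H1 730, 785 and 764 CPM in clone 1-10, against 680, 721 and 662 CPM in wild type, a log2 fold change of 0.14 (SE 0.0451, edgeR adjusted p = 0.0333).

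The test of the knockout effect in H9 minus that in H1 called 3 members higher and 1 lower of 81, against 5.21% higher and 4% lower, 9.21% in either direction, of all 15802 tested genes. The members' median difference was 0.04. The 4 genes were RPL22L1, RPL36A, RPL13A and RPS23.

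RPL22L1 moved in opposite directions in the lines. It encodes a paralog that can take the place of RPL22 in the ribosome, and RPL22 is known to repress it. RPL22L1 had 64.1, 61 and 63.2 CPM in clone 1-10, against 74.2, 72.9 and 68.5 CPM in H1 wild type. In H9 it had 75.2, 67.1 and 73.4 CPM in 9-1 and 79.8, 84.8 and 76.6 CPM in 9-D, against 56.9, 65.9 and 61.9 CPM in wild type. Every clone 1-10 library was below, and every H9 knockout library above, the wild type of its line.

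The log2 fold change of RPL22L1 was -0.20 in 1-10 (SE 0.0628, edgeR adjusted p = 0.0372), 0.22 in 9-1 (SE 0.0682, edgeR adjusted p = 0.014) and 0.38 in 9-D (SE 0.0676, edgeR adjusted p = 3.8e-05). Its effect in H9 minus that in H1 was 0.50 (SE 0.0871, edgeR adjusted p = 6.72e-05), a call that held with each of the 15 libraries left out. The call in 1-10 alone did not hold with any of the 6 libraries left out (edgeR adjusted p from 0.0563 to 0.155). The call in 9-1 was lost without wild-type library 1 (edgeR adjusted p = 0.125), clone library 1 (0.0707) or clone library 3 (0.0569). RPL22 itself was higher in 1-10 and had log2 fold changes of 0 in 9-1 and 0.06 in 9-D, neither of which passed.

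The 250 bases before the start of RPL22L1 are shown because it is the member with the smallest adjusted p for a difference between the lines. They span chr3:170870196-170870445 on the minus strand of GRCh38.p14, and capitals mark CTCCTCC, the reverse complement of GGAGGAG, and the TATA box TATAAA.
RPL22L1 upstream: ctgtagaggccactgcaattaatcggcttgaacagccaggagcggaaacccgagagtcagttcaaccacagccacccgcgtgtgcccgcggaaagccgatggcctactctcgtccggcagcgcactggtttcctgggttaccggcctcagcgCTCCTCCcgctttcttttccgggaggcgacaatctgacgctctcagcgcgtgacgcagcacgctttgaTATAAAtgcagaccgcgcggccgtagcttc
TATAAA between 40 and 21 bases before the start, on the gene's strand, was found in 5.97% of the 67 members and 2.85% of all genes.

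The other paralogs are set beside their core genes. RPL39L, a paralog of RPL39 best known from the testis and expressed in stem cells and tumours, had 18.4, 17.1 and 16 CPM in 9-1 and 19.9, 23.1 and 18.3 CPM in 9-D, against 21.4, 23.3 and 21.6 CPM in H9 wild type. All 9-1 libraries lay below wild type, whereas 9-D overlapped with it. Its log2 fold change was -0.37 in 9-1 (SE 0.0963, edgeR adjusted p = 0.004), a call that held with each library left out, and -0.12 in 9-D (SE 0.0942, edgeR adjusted p = 0.409). RPL39 rose in 1-10, by 0.18, and in 9-D, by 0.20, and had 0.03 in 9-1. Its calls held in 2 and 4 of the 6 fits without 1 library (edgeR adjusted p up to 0.149 and 0.0885).

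RPL26L1 had 27.3, 28.8 and 27.6 CPM in clone 1-10, against 22.4, 23.7 and 20.5 CPM in H1 wild type, with no overlap and a log2 fold change of 0.33 (SE 0.0874, edgeR adjusted p = 0.0109). Without wild-type library 3 its adjusted p was 0.0936 by the same edgeR test. RPL26 had 0.12 in that clone (SE 0.0452, edgeR adjusted p = 0.0703). RPS27L, a p53-induced paralog of RPS27, rose by 0.26 in 9-D (SE 0.0732, edgeR adjusted p = 0.00772), beside 0.21 for RPS27 (SE 0.0622, edgeR adjusted p = 0.00974, and 0.0583 without wild-type library 2). RPL7L1, an assembly factor related to RPL7, passed in no clone, with 0.06 in 1-10, 0.14 in 9-1 and 0.12 in 9-D, and neither did RPL7.

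**Figure D4:**
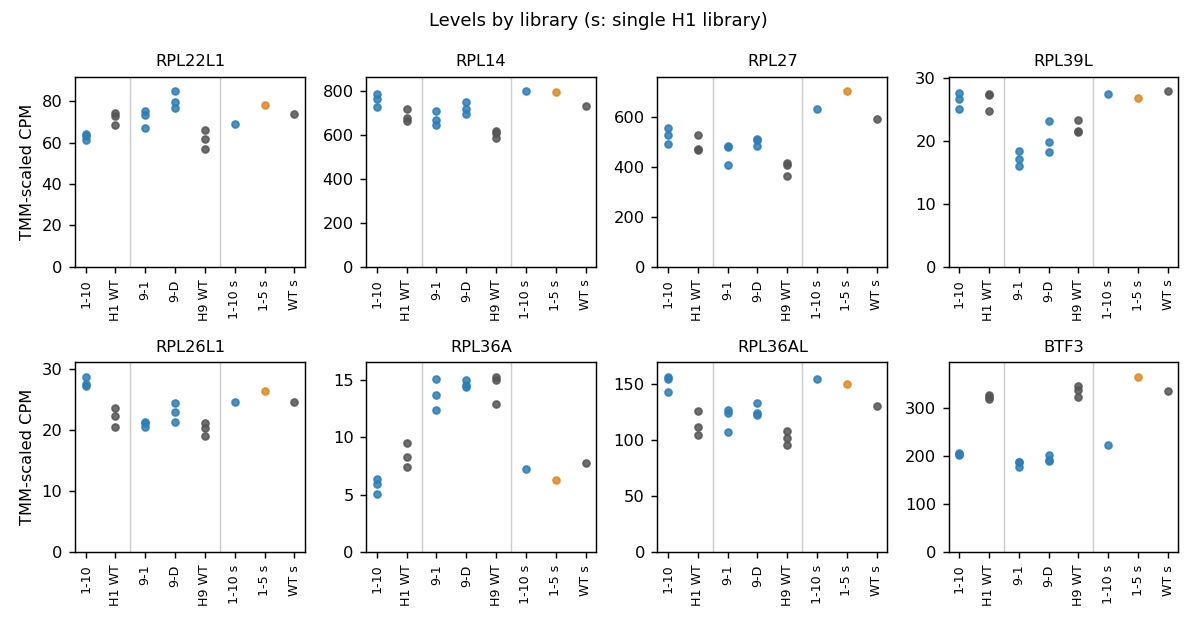
TMM-scaled CPM, 1 point per library, for RPL22L1, RPL14, RPL27, RPL39L, RPL26L1 and RPL36A and for RPL36AL and BTF3, with the axis from 0; grey lines part H1, H9 and the single H1 libraries (s), which were scaled apart. RPL22L1 is below wild type in 1-10 and above it in 9-1 and 9-D, and BTF3 is below wild type in every homozygous clone.

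A further list held translation factors and RNA-binding proteins known as products of TOP messenger RNAs, of which 22 were tested. It includes RPL36AL, whose run at the annotated start had only 3 pyrimidines. In clone 1-10, 5 rose and 1 fell, with a median log2 fold change of 0.07. In 9-1, 6 rose and 1 fell (median 0.06), and in 9-D 10 rose and 1 fell (median 0.11). The genes that rose are 22.7%, 27.3% and 45.5% of the list in 1-10, 9-1 and 9-D. Of all tested genes 5.01%, 12.8% and 11.5% were called higher, with medians of 0, 0 and -0.01. The gene that fell in each clone was BTF3, a subunit of the nascent polypeptide-associated complex that meets new chains at the ribosome. BTF3 had 201, 206 and 204 CPM in clone 1-10, against 327, 318 and 322 CPM in H1 wild type, and 188, 176 and 187 CPM in 9-1 and 190, 201 and 192 CPM in 9-D, against 323, 345 and 336 CPM in H9 wild type. No library of a homozygous clone came near wild type, and the log2 fold change was -0.66 in 1-10, -0.87 in 9-1 and -0.78 in 9-D (edgeR adjusted p = 9.03e-12, 6.03e-15 and 8.77e-14). In the single libraries it had 222 CPM in clone 1-10, 365 CPM in the heterozygous clone 1-5 and 335 CPM in wild type.

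RPL36AL rose in each clone, by 0.41 in 1-10, 0.22 in 9-1 and 0.31 in 9-D. FAU, which encodes a small-subunit protein fused to a ubiquitin-like one, rose by 0.18 in 1-10 (edgeR adjusted p = 0.0231) and by 0.20 in 9-D (edgeR adjusted p = 0.0224) and had 0.03 in 9-1. RACK1, a signalling scaffold on the small subunit, rose by 0.26 in 9-D (SE 0.054, edgeR adjusted p = 0.000378). Members were also split by whether an annotated start had a C and at least 4 further C or T. Median log2 fold changes with and without such a start were 0.11 and 0.08 in 1-10, 0.05 and 0.09 in 9-1, and 0.17 and 0.18 in 9-D. The groups held 46 and 19 tested genes. A start annotated a few bases off would place a TOP gene in the group without, where RPL3 and RPL19 had runs of 4. The difference between the groups was not tested.

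Of 54 tested factors that assemble ribosomes and process their RNA, 13 (24.1%) rose in 1-10, 18 (33.3%) in 9-1 and 16 (29.6%) in 9-D, and none was called lower. Of all tested genes, 5.01%, 12.8% and 11.5% were called higher in these clones. The factors' medians were 0.12, 0.11 and 0.10, where all tested genes had medians of 0, 0 and -0.01. The largest rises were those of GAR1 in 1-10 (0.34, a protein of the complexes that guide pseudouridylation), RRS1 in 9-1 (0.38, a factor of the early large subunit) and NOP16 in 9-D (0.35, a nucleolar protein). GAR1 had 51.8, 48 and 53.2 CPM in clone 1-10, against 41, 39.8 and 40.1 CPM in H1 wild type. RRS1 had 105, 91.7 and 106 CPM in 9-1, against 76.7, 78.1 and 76.8 CPM in H9 wild type. Neither gene's clone libraries overlapped with wild type.

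RNA polymerase I, which makes the large ribosomal RNAs, had 3 of 18 subunits and factors higher in 1-10, 3 higher and 1 lower in 9-1 and 3 higher in 9-D. The 3 higher genes are 16.7% of the list, beside 5.01%, 12.8% and 11.5% of all tested genes in 1-10, 9-1 and 9-D. Dedicated chaperones and import factors of ribosomal proteins had 1, 2 and 3 of 13 higher in 1-10, 9-1 and 9-D and none lower. These are 7.69%, 15.4% and 23.1% of the list, beside the same shares of all tested genes. Host genes of small nucleolar RNAs, most of them noncoding, formed another list, and their TOP starts were not checked here. In it 1 of 15 tested genes was higher in each clone and none lower. That is 6.67% of the list, beside 5.01% of all tested genes in 1-10, and below their share in 9-1 and 9-D. Mitochondrial ribosomal proteins, which serve the separate ribosome of that organelle, had 12 of 79 higher in 1-10, 9 higher and 1 lower in 9-1, and 18 higher in 9-D, with medians of 0.13, 0.08 and 0.13. These higher genes are 15.2%, 11.4% and 22.8% of the list, so in 9-1 the share was below that of all tested genes.

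Among 19 regulators of the pathway (mTORC1, MYC and LARP1), 2 rose and 1 fell in 1-10, 8 rose and 1 fell in 9-1, and 5 rose and 2 fell in 9-D. The higher genes are 10.5%, 42.1% and 26.3% of the list, beside 5.01%, 12.8% and 11.5% of all tested genes. The lower genes are 5.26%, 5.26% and 10.5%, beside 7.25%, 13.5% and 12%. MYC had 123, 129 and 114 CPM in clone 1-10, against 112, 102 and 98 CPM in H1 wild type, and rose by 0.23 (SE 0.0614, edgeR adjusted p = 0.01). In 9-1 it rose by 0.31 (SE 0.0726, edgeR adjusted p = 0.00115) and in 9-D by 0.29 (SE 0.0726, edgeR adjusted p = 0.00316). DDIT4, an inhibitor of mTORC1, had 26.8, 27.1 and 29.5 CPM in clone 1-10, against 65.6, 63.1 and 113 CPM in H1 wild type, a fall of 1.54 on the log2 scale (SE 0.131, edgeR adjusted p = 2.16e-10). Its libraries did not overlap, and wild-type library 3 was far above the others. In H9, DDIT4 was called in neither clone. It had 40.8, 37.8 and 37.7 CPM in 9-1 and 33.9, 42.5 and 44.1 CPM in 9-D, against 36.1, 40.7 and 32.2 CPM in wild type. The effect on DDIT4 in H9 minus that in H1 was 1.66 (SE 0.17, edgeR adjusted p = 9.38e-10). SESN2, another inhibitor, rose by 0.37 in 9-1 and by 0.39 in 9-D (edgeR adjusted p = 0.000191 and 0.000115).

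**Figure D5:**
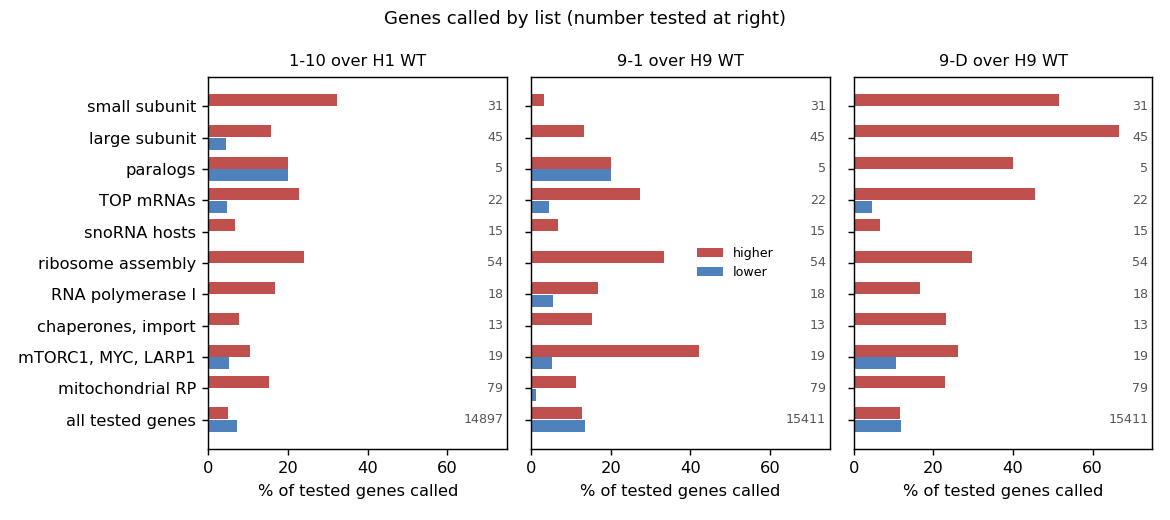
Percent of the tested genes of each list called higher (red) or lower (blue) by edgeR at an adjusted p below 0.05 in each clone, with the number tested at the right and all tested genes in the bottom row. In 9-D the bars of the small-subunit list (51.6%) and the large-subunit list (66.7%) are longer than that of all tested genes (11.5%).

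Values that moved with the groups are given here for the comparisons above. The 12 markers of pluripotent cells summed to 10100 to 10400 CPM in clone 1-10, against 9050 to 9470 CPM in H1 wild type, and to 9180 to 9400 CPM in 9-1 and 9250 to 9480 CPM in 9-D, against 7750 to 7970 CPM in H9 wild type. The 12 markers of neuroectoderm summed to 351 to 402 CPM in 1-10, against 379 to 418 CPM in H1 wild type, and to 430 to 461 CPM in 9-1 and 427 to 482 CPM in 9-D, against 285 to 333 CPM in H9 wild type. Most of the H9 sum was TUBB3, a tubulin of neurons, which had 434, 403 and 429 CPM in 9-1 and 402, 405 and 460 CPM in 9-D, against 277, 245 and 288 CPM in wild type, while 4 of the 5 tested markers had a log2 fold change below 0 in each H9 clone. Markers of fibroblasts and feeder cells summed to 609 to 738 CPM in 1-10, against 673 to 705 CPM in H1 wild type, with FAP at 0 in every 1-10 library, and to 816 to 891 CPM in 9-1 and 909 to 997 CPM in 9-D, against 928 to 975 CPM in H9 wild type, with FAP at 0 in every H9 library, LUM in every 9-1 library and DCN in every 9-D and wild-type library. The largest single part of each fibroblast and feeder sum was THY1, at 378 to 425 CPM in 1-10, against 361 to 384 CPM in H1 wild type. In H9, THY1 had 373 to 401 CPM in 9-1 and 409 to 440 CPM in 9-D, against 443 to 503 CPM in wild type. By edgeR, pluripotency markers gave 4 of 12 higher in 1-10 and 9 of 12 in each H9 clone, and none lower. Neuroectoderm markers gave 6 of 10 tested lower in 1-10, and 1 higher and 1 lower of 5 in each H9 clone. Fibroblast markers gave 5 of 9 lower in 1-10, 1 higher and 5 lower of 8 in 9-1, and 1 higher and 4 lower of 8 in 9-D. TMM factors were 0.981 to 0.995 in 1-10, against 1.01 in H1 wild type, and 0.981 to 0.997 in the H9 clones, against 1.01 to 1.03 in H9 wild type. The part of these markers and factors in the changes of ribosomal protein genes was not tested. Length was also compared: among other genes with a transcript of at most 1000 bases, the median log2 fold change was 0.06 in 1-10, -0.04 in 9-1 and 0.01 in 9-D, beside 0.10, 0.05 and 0.17 for the 30 members of that length.

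In the single H1 libraries, ribosomal protein genes held 6.30% of all counts in clone 1-10 (95% exact interval 6.28 to 6.31%) and 6.50% in the heterozygous clone 1-5 (6.49 to 6.52%), against 6.21% in wild type (6.20 to 6.22%). The intervals cover counting error only, and with 1 library a group there is no test. The median log2 ratio over 81 members was 0.03 for clone 1-10 over wild type, with 50 above 0, and 0.07 for clone 1-5 over wild type, with 59 above 0. All genes had medians of -0.02 and -0.03. No member was 1.5-fold higher or lower in either clone, whereas 1.91% of genes were past that fold upward and 5.04% downward in 1-10, and 2.97% and 4.1% in 1-5. RPL22L1 had a log2 ratio of -0.12 in clone 1-10 (919 counts, against 828 in the shallower wild-type library) and 0.07 in clone 1-5 (1027 counts).

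The authors' deposited table for clone 1-10 over H1 wild type, made with DESeq2, called 23 of 81 members higher and 2 lower, with a median log2 fold change of 0.11, against 5.37% and 5.35% of all genes. The authors' deposited table for both H9 clones over H9 wild type called 38 of 81 higher and none lower, with a median of 0.13, against 13.1% and 12.2% of all genes.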

How the data were processed

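The authors' deposited count tables hold whole read counts per gene symbol for 18 libraries, unnormalized. Per the submitters' processing notes, STAR, hg19, featureCounts and DESeq2 were used; versions, strand setting and the treatment of reads that fit several copies are not given in the sources used here. The authors' deposited comparison tables hold log2 fold changes and adjusted p-values. Library totals ranged from 9.66 to 21 M.

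Counts were tested with edgeR 4.0.16 (R 4.3.3): TMM scaling, filterByExpr by group, quasi-likelihood F tests, Benjamini-Hochberg adjustment over all tested genes and a threshold of 0.05. H1 groups were fitted together, H9 groups together, and the difference of effects over 15 libraries. Standard errors (SE) are derived from the log2 fold change and the F value. Shares were compared by 2-sided exact permutation tests, and intervals of shares are exact Clopper-Pearson. The procedure was tested on simulated data. Alternatives were RLE scaling, library totals, no filter, DESeq2 1.42.0, a replicate block and leaving out each library. Replicate pairs differed by more than counting error (chi-square per gene 1.83 to 5.94 over 15 pairs).

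The members and the lists beside them were chosen with earlier results of these data known. Named whatever their values are the paralogs with their core genes, the stalk proteins, RPSA, RPS6, RPL5 and RPL11; by value, the 6 largest changes that passed per comparison, the 5 largest shares of counts and up to 3 genes per list. RPL13A, RPL9 and the genes of the overlap are named outside that rule, and some genes it would name are not reported here. Promoter windows are from RefSeq, GRCh38.p14, lengths from GENCODE.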

Additional observations from a re-analysis of the deposited data

Results flagged for a closer look

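For 4 ribosomal protein genes the effect of the knockout in H9 differed from that in H1 by the test of the difference itself (edgeR over 15 libraries, Benjamini-Hochberg adjustment). RPL22L1 had a difference of 0.50 on the log2 scale (adjusted p = 6.72e-05), with each H9 clone above and clone 1-10 below the wild type of its line. RPL36A had 0.54 (adjusted p = 0.0347), from a fall in clone 1-10 at low counts and log2 fold changes of -0.06 in 9-1 and 0.02 in 9-D. RPL13A had 0.31 (adjusted p = 0.00606), with -0.18 in 1-10, 0.12 in 9-1 and 0.14 in 9-D. RPS23 had -0.25 (adjusted p = 0.025), with 0.20 in 1-10, -0.10 in 9-1 and 0 in 9-D. With 1 library left out at a time, the calls of RPL22L1 and RPL13A held in 15 of 15 fits, that of RPS23 in 11 and that of RPL36A in 9. RPS23 did not pass without H1 wild-type library 1 or 3, clone 1-10 library 3 or H9 wild-type library 2 (adjusted p from 0.0765 to 0.122).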

How the results depend on the processing

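No result reversed under any alternative. Of 761 recomputed values, 652 kept their direction and side of the threshold or stayed within the set range. Of the others, 70 lost a call, 1 gained one and 38 moved. The 652 include the shares of counts of single clones. There the exact permutation p cannot fall below 0.1, so only a reversal could have changed the result. The same holds for the share of both H9 clones without a wild-type library or with the replicate block. Too few libraries or differences remain there for an exact permutation p below 0.05. Scaled by library totals only, 8 members were higher in clone 1-10, 3 in 9-1 and 27 in 9-D. Without the filter on low counts, 29 members were higher in clone 1-10. With DESeq2 as run here, no member was lower in clone 1-10, against 3 by edgeR and 2 in the authors' deposited DESeq2 results. RPL36A had an adjusted p of 0.0696 by DESeq2 as run here, and 13 members were higher in 9-1. Whether replicate numbers pair the libraries was not settled. Same-numbered libraries had correlations of 0.03 to 0.19 over 3 pairs in H1, with 2 above the preset 0.1. In H9 the correlations were -0.09 to 0.16 over 9 pairs, with 4 above 0.1. With the replicate block, 45 members were higher in clone 1-10 and 2926 genes of all were called, 15 members were higher in 9-1, and 5 members were higher in the difference between lines. In the single libraries, the log2 ratio of summed counts was 0.02 for 1-10 and 0.067 for 1-5 by totals, and 0.044 and 0.088 after TMM scaling. The cause of these changes was not tested.

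Leaving out each library gave 4 to 29 members higher and 0 to 2 lower in clone 1-10 and 949 to 2100 genes called. In 9-1 it gave 1 to 13 members higher with a median of 0.04 to 0.12, and in 9-D 34 to 56 higher. For 9-D against 9-1 it gave 25 to 52 genes called, and for the difference between lines 2 to 4 members higher and 0 to 1 lower. The share of counts of both H9 clones was 0.182 to 0.335 points above wild type. For single clones the range was 0.1 to 0.287 points in 1-10 (lowest without clone library 2), 0.00578 to 0.232 in 9-1 (lowest without clone library 1, highest without clone library 2) and 0.295 to 0.528 in 9-D.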
